A study of Mus musculus with 6 samples.

Results

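Growth hormone signalling through JAK2 and STAT5, and the SOCS genes that restrain it, was examined in gastrocnemius, a calf muscle made mostly of fast fibres, of MLL4SET-MKO mice and WT mice. The 10 genes were taken by symbol from the authors' table of 25927 rows, and each had 1 row, marked as tested, among 13347 tested rows. They are the receptor gene Ghr, the kinase gene Jak2, the transcription factor genes Stat5a, Stat5b and Stat3, the SOCS family genes Cish, Socs1, Socs2 and Socs3, and the growth factor gene Igf1. The MLL4SET-MKO group holds 3 libraries from mice with a knock-out, restricted to muscle, of the SET domain of MLL4, the product of Kmt2d that methylates lysine 4 of histone H3, and the WT group holds 3 libraries from wild-type mice. All mice were of the C57BL/6J background and 8 weeks old. Neither the driver of the deletion nor the sex of the mice, a known influence on growth hormone secretion, is given in the labels used here. The authors' table gives 1 FPKM value a group (fragments scaled to transcript length and to sequencing depth), so values of single mice and their spread are not shown, and read depth is unknown. The genes were selected on their FPKM in both groups and on the ratio of these, so their values below are a description. The authors' own q is given for each as deposited. The intervals and the stricter reading given beside it were worked out from the same deposited test, so they describe its precision and are no independent evidence.

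Growth hormone from the pituitary binds the receptor encoded by Ghr, which carries the kinase JAK2 on its inner side. Activated JAK2 phosphorylates STAT5A and STAT5B, which then pair, enter the nucleus and bind DNA at sites of the form TTCNNNGAA. In liver and muscle this raises Igf1 and also Cish and the SOCS genes, whose proteins bind the receptor or the kinase through an SH2 domain and damp the signal. STAT3 answers mainly to cytokines of the interleukin 6 family and drives Socs3, and SOCS1 is best known for blocking JAK kinases after interferon gamma.

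In MLL4SET-MKO muscle the inhibitor genes Cish and Socs1 stood 4.59-fold and 4.36-fold below their WT level, Stat5b and Jak2 were moderately lower, and Socs2, Socs3 and Stat3 were slightly higher by value. The authors' q (their p-value adjusted over all tested rows) was under 0.05 for 4 of the 10 genes, all lower in MLL4SET-MKO. Over all tested rows 11.8% had a q under 0.05, 4.44% higher and 7.41% lower. A stricter reading, which takes the authors' test statistic itself as a z score, called 2 of the 10 genes (Cish and Socs1) and 3.11% of all tested rows, 1.24% higher and 1.87% lower. Because the genes were picked with this contrast known, nothing is read from that difference in shares. The median change of the 10 genes was -0.26 on the scale log2((MLL4SET-MKO FPKM + 1)/(WT FPKM + 1)), against -0.03 over the 11271 tested rows with a mean of at least 1 FPKM, called measured rows here and including all 10 genes. A value was higher in MLL4SET-MKO for 3 of the 10 genes and lower for 7.

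**Figure D1:**
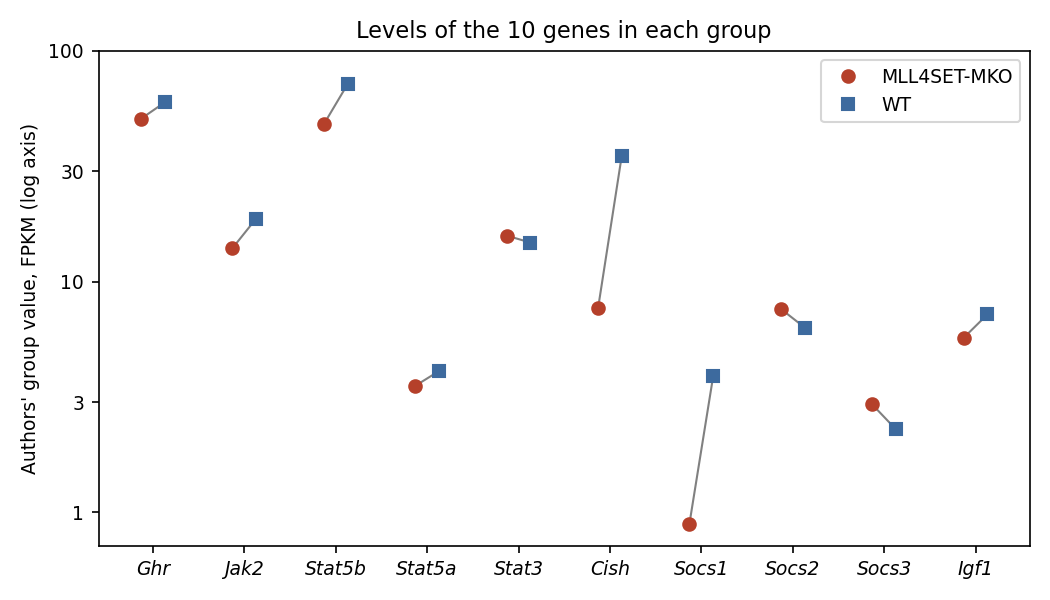
Level of each of the 10 genes as the authors' group value in FPKM on a log axis, MLL4SET-MKO as circles and WT as squares, joined by a line; each symbol is 1 value for 3 libraries, so no error is drawn. Cish stands at 7.65 FPKM in MLL4SET-MKO and 35.2 FPKM in WT, Socs1 at 0.894 FPKM in MLL4SET-MKO and 3.90 FPKM in WT, and the values of each of the other 8 genes differ by 1.49-fold or less.

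Ghr, the growth hormone receptor gene (chromosome 15, 3317755 to 3583352 on mm10, minus strand, protein-coding), had 50.7 FPKM in MLL4SET-MKO and 59.8 FPKM in WT. It ranked first of the 10 genes by level in MLL4SET-MKO and 2nd in WT, and in both groups its FPKM was above that of over 90% of tested rows (percentile 90.9 in MLL4SET-MKO and 91.8 in WT). The log2 ratio without a pseudocount was -0.24 (95% interval -0.51 to 0.04), and the authors' deposited table gives q = 0.33. The interval, like those below, was worked back from the authors' test statistic and p-values and is not adjusted for the number of rows. Ghr lies on the same chromosome as the targeted gene Kmt2d, 95.2 Mb away.

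Jak2, the kinase of the growth hormone receptor (chromosome 19, 29251714 to 29313080, plus strand), had 13.9 FPKM in MLL4SET-MKO and 18.8 FPKM in WT. Its log2 ratio was -0.43 (interval -0.68 to -0.18), and q was 0.00792 in the authors' deposited table. On the stricter reading, which widens the interval to between -0.86 and 0.01, Jak2 no longer passed. Jak1, the kinase most abundant in this muscle among the JAK genes, had 41.9 FPKM in MLL4SET-MKO and 43.5 FPKM in WT (the authors' deposited table gives q = 0.88), at a locus shared with Raver2. Of the summed FPKM of Jak1, Jak2 and Tyk2, Jak2 made up 23.6% in MLL4SET-MKO and 28.7% in WT. Jak3, left out of this sum, had 3.11 FPKM in MLL4SET-MKO and 2.85 FPKM in WT, in a row shared with Insl3.

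Stat5b had the highest level of Stat5a, Stat5b and Stat3. It had 48.0 FPKM in MLL4SET-MKO and 71.6 FPKM in WT, the highest of the 10 genes in WT and 2nd to Ghr in MLL4SET-MKO. Its log2 ratio was -0.58 (interval -0.82 to -0.33), a 1.49-fold lower value, and the authors' deposited table gives q = 0.000903, its lowest. On the stricter reading the upper end of the interval was -0.15 and Stat5b no longer passed. Its close paralog Stat5a, whose protein binds the same DNA sites, had 3.54 FPKM in MLL4SET-MKO and 4.09 FPKM in WT. The log2 ratio of Stat5a was -0.21 (interval -0.51 to 0.09; q = 0.46 in the authors' deposited table). This interval overlaps that of Stat5b, and the difference between the paralogs was not tested.

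Per length of transcript, Stat5b stood 13.6 times above Stat5a in MLL4SET-MKO and 17.5 times above it in WT. Stat5a and Stat5b together summed to 51.6 FPKM in MLL4SET-MKO and 75.7 FPKM in WT. Stat3 had 15.8 FPKM in MLL4SET-MKO and 14.8 FPKM in WT, a log2 ratio of 0.10 (interval -0.15 to 0.35; q = 0.74 in the authors' deposited table). The ratio of Stat5b to Stat3 was 3.04 in MLL4SET-MKO and 4.85 in WT.

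The Stat5a and Stat5b transcripts are alike in sequence, so part of their reads cannot be placed with certainty. In the longest coding transcripts of GENCODE M21, 15.8% of the 50-base windows of Stat5a occur unchanged in Stat5b, and 11.8% of those of Stat5b occur in Stat5a. At 75 bases these shares were 10.1% and 7.53%. No 25-base window of Stat5b occurred in Stat3. How the authors' counting divided shared reads is not stated in the labels, and the low level of Stat5a is the more exposed to it.

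Stat5b, Stat5a and Stat3 lie side by side on chromosome 11 (mm10). Stat5b covers 100780731 to 100850585 on the minus strand, Stat5a 100859345 to 100885169 on the plus strand and Stat3 100886810 to 100939511 on the minus strand. The gap between Stat5b and Stat5a was 8.76 kb and that between Stat5a and Stat3 was 1.64 kb. None of the 14 other tested rows within 250 kb of Stat5b had a q under 0.05. Its nearest tested neighbour on the other side, Ghdc, had 3.94 FPKM in MLL4SET-MKO and 3.38 FPKM in WT.

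Cish, which encodes the cytokine-inducible SH2 protein of the SOCS family (chromosome 9, 107296689 to 107301964, plus strand, protein-coding), showed the lowest ratio of the 10 genes. It had 7.65 FPKM in MLL4SET-MKO and 35.2 FPKM in WT, 4.59-fold lower in MLL4SET-MKO. For Cish the log2 ratio was -2.20 (interval -2.49 to -1.91), and q was 0.000903 in the authors' deposited table. Cish passed also on the stricter reading, where the interval was -2.70 to -1.70. By level it moved to 5th of the 10 genes in MLL4SET-MKO, against 3rd in WT, and to the 58.7th percentile of tested rows in MLL4SET-MKO, against the 86.7th in WT. Among 868 rows with a symbol, at least 1 FPKM in WT and a lower call, Cish had the 20th lowest log2 ratio.

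Socs1 (chromosome 16, 10783809 to 10785536, minus strand) had a ratio close to that of Cish at a far lower level. It had 0.894 FPKM in MLL4SET-MKO and 3.90 FPKM in WT, 4.36-fold lower in MLL4SET-MKO. For Socs1 the log2 ratio was -2.13 (interval -2.82 to -1.43), and q was 0.000903 in the authors' deposited table. Socs1 passed also on the stricter reading. The standard error was 0.36 for Socs1 and 0.15 for Cish. Socs1 had the 22nd lowest log2 ratio of the 868 rows named above. In MLL4SET-MKO it stood at the 13.7th percentile of tested rows, against the 41.7th in WT.

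Socs2, which restrains growth hormone signalling and whose loss enlarges mice, had 7.62 FPKM in MLL4SET-MKO and 6.33 FPKM in WT (chromosome 10, 95411490 to 95416857, minus strand). Its log2 ratio was 0.27 (interval -0.04 to 0.57; q = 0.31 in the authors' deposited table). Socs3, the feedback inhibitor of STAT3 signalling (chromosome 11, 117966087 to 117969366, minus strand), had 2.94 FPKM in MLL4SET-MKO and 2.29 FPKM in WT. Its log2 ratio was 0.36 (interval -0.02 to 0.74; q = 0.27 in the authors' deposited table). Both intervals lie wholly above those of Cish and Socs1, also on the stricter reading (-0.26 to 0.79 for Socs2 and -0.30 to 1.01 for Socs3).

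By these values the make-up of the SOCS transcripts was not the same in the 2 groups. Cish, Socs1, Socs2 and Socs3 summed to 19.1 FPKM in MLL4SET-MKO and 47.7 FPKM in WT. Cish held 40.1% of this sum in MLL4SET-MKO and 73.8% in WT, and Socs2 held 39.9% in MLL4SET-MKO and 13.3% in WT. Cish stood beside Socs2 in MLL4SET-MKO (7.65 and 7.62 FPKM) and 5.56 times above it in WT. The share of Socs1 was 4.68% in MLL4SET-MKO and 8.18% in WT, and that of Socs3 was 15.4% in MLL4SET-MKO and 4.80% in WT.

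The family has 4 further genes, Socs4 to Socs7, of which Socs7 was the most abundant at 22.1 FPKM in MLL4SET-MKO and 22.9 FPKM in WT. Socs6 had 12.4 FPKM in MLL4SET-MKO and 12.9 FPKM in WT, and Socs5 had 5.71 FPKM in MLL4SET-MKO and 5.52 FPKM in WT. Socs4 had 2.74 FPKM in both groups. None of these 4 had a q under 0.05, and their log2 ratios lay between -0.06 (Socs6) and 0.05 (Socs5). All 8 SOCS genes summed to 62.0 FPKM in MLL4SET-MKO and 91.8 FPKM in WT, and without Cish to 54.3 FPKM in MLL4SET-MKO and 56.6 FPKM in WT.

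Since STAT5 binds TTCNNNGAA, the promoters of Cish, Socs1 and Socs3 and of 6 other genes of the 10 were read for it in RefSeq windows (GRCm38.p6) that run from 250 bases before to 50 bases after the start of transcription. The motif reads the same on both strands. The promoter of Socs2 was not analysed here. There were 12 windows for the 9 genes, and matches stood in those of Cish and Socs3. The sequences of Cish and Socs1, the lowest ratios, and of Socs3, whose value was the higher one in MLL4SET-MKO, are printed 5′ to 3′ on the strand of the gene, with each match in capitals. The Cish run is chr9:107296409-107296678 (plus strand), that of Socs1 chr16:10785537-10785786 and that of Socs3 chr11:117969367-117969616 (both minus strand). Each starts 250 bases before the RefSeq start, and the Cish run ends 20 bases after it.
Cish: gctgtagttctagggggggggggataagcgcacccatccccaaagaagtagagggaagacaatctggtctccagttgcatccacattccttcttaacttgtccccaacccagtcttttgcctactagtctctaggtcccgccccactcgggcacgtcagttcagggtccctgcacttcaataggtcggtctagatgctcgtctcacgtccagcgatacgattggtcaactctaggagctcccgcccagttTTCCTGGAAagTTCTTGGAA
Socs1: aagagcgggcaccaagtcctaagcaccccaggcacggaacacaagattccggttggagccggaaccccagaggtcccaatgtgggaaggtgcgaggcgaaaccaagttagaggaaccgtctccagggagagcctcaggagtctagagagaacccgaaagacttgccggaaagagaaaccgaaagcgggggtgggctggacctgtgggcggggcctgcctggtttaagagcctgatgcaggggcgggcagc
Socs3: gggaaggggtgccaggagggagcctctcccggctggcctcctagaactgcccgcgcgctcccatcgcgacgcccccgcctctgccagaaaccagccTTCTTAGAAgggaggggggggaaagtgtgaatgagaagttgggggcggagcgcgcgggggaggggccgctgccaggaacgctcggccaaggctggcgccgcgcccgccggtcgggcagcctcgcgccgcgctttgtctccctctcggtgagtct

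Cish held a pair of matches, TTCCTGGAA at chr9:107296659-107296667 and TTCTTGGAA at chr9:107296670-107296678, at positions 1 and 12 counted from the RefSeq start. The authors' locus for Cish begins at 107296689, downstream of both, and GENCODE M21 begins the gene at 107296026, so both matches lie before the authors' start and inside the GENCODE gene. Socs3 held TTCTTAGAA at position -154 (chr11:117969512-117969520). GENCODE M21 begins Socs3, on the minus strand, at 117970047 and the authors' locus at 117969366. This match and the whole printed Socs3 run therefore lie before the authors' start and inside the GENCODE gene. Also wholly inside the GENCODE genes lay every window of Igf1 and Stat5a and 1 window each of Stat5b and Ghr, none with a match. At least 1 match to TTCNNNGAA stood in 8.30% of all 32851 RefSeq windows, and at least 2 in 0.457%. For genes with a q under 0.05, the 10 left out, 5.26% of 931 windows of lower genes and 6.80% of 485 windows of higher genes held a match, against 6.84% of the 11646 windows of tested genes. Only rows with 1 symbol were used here. Windows existed for 662 of 885 lower genes, 376 of 500 higher genes and 9079 of 11946 tested genes, and the rest were not read. A match is a run of letters, not a measured binding site, and the letters outside these windows were not read.

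Igf1, the growth factor gene that growth hormone raises in liver and muscle (chromosome 10, 87859056 to 87937047, plus strand), had 5.71 FPKM in MLL4SET-MKO and 7.21 FPKM in WT. Its log2 ratio was -0.34 (interval -0.63 to -0.04). This unadjusted interval leaves out 0, while the adjusted q of Igf1 in the authors' deposited table, 0.12, misses the threshold. By level Igf1 ranked 7th of the 10 genes in MLL4SET-MKO and 6th in WT.

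**Figure D2:**
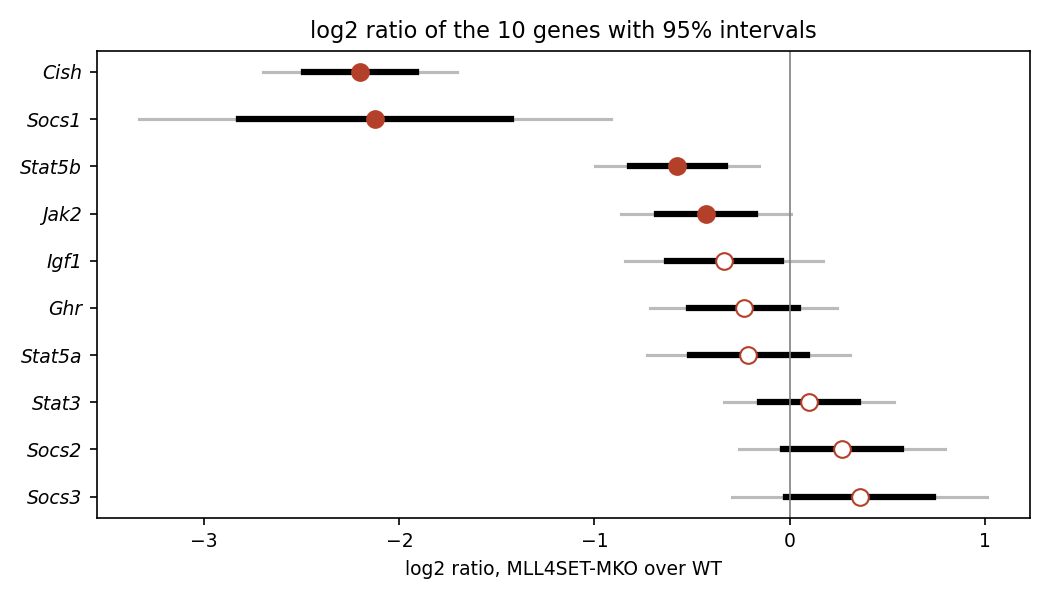
log2 ratio of MLL4SET-MKO over WT for each of the 10 genes. The 95% interval was worked back from the authors' test statistic, on the scale of their p-values (black) and on the stricter reading (grey). Filled circles have a q under 0.05 in the authors' deposited table. Cish (-2.20) and Socs1 (-2.13) lie apart from the other 8 genes, which run from -0.58 (Stat5b) to 0.36 (Socs3).

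By log2 ratio Cish and Socs1 stood near the low end of the 868 rows called lower (20th and 22nd), Stat5b in the middle (455th) and Jak2 toward the small changes (718th). Neighbouring genes in the order of ratios were mostly not separable by their intervals. Those of Cish and Socs1 overlapped each other, the interval of Socs1 ended below that of Stat5b (on the stricter reading they overlapped, with Socs1 up to -0.915 and Stat5b from -0.997), and from Stat5b (-0.58) upward to Socs3 (0.36) each overlapped the next.

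**Figure D3:**
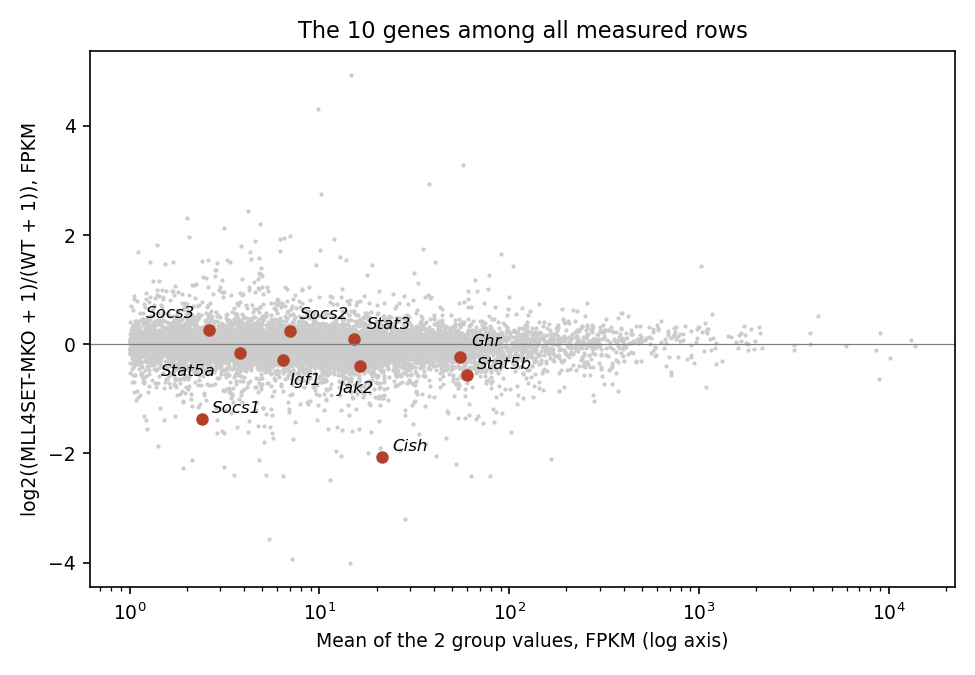
Change on the scale log2((MLL4SET-MKO FPKM + 1)/(WT FPKM + 1)) against the mean of the 2 group values in FPKM (log axis) for the 11271 measured rows, in grey, with the 10 genes marked and named. Cish (-2.06) and Socs1 (-1.37) lie below most of the grey points, and the other 8 genes run from -0.57 (Stat5b) to 0.26 (Socs3).

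Other genes of the JAK-STAT pathway were called, in either direction together, no more often than the background. The list held 24 genes, the remaining JAK, STAT and SOCS genes together with PIAS proteins, phosphatases and adaptors, and gave 23 measured rows. Of these 2 had a q under 0.05, both lower, which is 8.70%, against 12.0% of all measured rows (4.03% higher and 7.93% lower). The median change was 0.00, against -0.03 over all measured rows. Pias2, an inhibitor of STAT proteins, fell to 16.9 FPKM in MLL4SET-MKO, against 22.6 FPKM in WT (q = 0.027 in the authors' deposited table). Stam2, an adaptor of receptor sorting, fell to 3.14 FPKM in MLL4SET-MKO, against 4.29 FPKM in WT (the authors' deposited table gives q = 0.035). Neither passed on the stricter reading.

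The phosphatase gene Ptpn11 and the adaptor gene Sh2b1, both known from growth hormone signalling, had no call. Ptpn11, which encodes the phosphatase SHP2, had 32.5 FPKM in MLL4SET-MKO and 38.8 FPKM in WT (log2 ratio -0.25, interval -0.50 to -0.01; q = 0.20 in the authors' deposited table). Sh2b1, an adaptor that enhances JAK2, has 2 rows at one locus, and the more abundant had 36.0 FPKM in MLL4SET-MKO and 28.4 FPKM in WT (the authors' deposited table gives q = 0.076).

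Among receptors of other ligands that use JAK kinases, 6 of 14 were measured. One chain of the interferon gamma receptor, Ifngr2, which carries JAK2, fell to 25.5 FPKM in MLL4SET-MKO, against 50.2 FPKM in WT. Its log2 ratio was -0.98 (interval -1.23 to -0.73; q = 0.000903 in the authors' deposited table), and it passed also on the stricter reading. The other chain, Ifngr1, which carries JAK1, had 20.1 FPKM in MLL4SET-MKO and 20.7 FPKM in WT (log2 ratio -0.05, interval -0.31 to 0.21). Csf2ra, a chain of the receptor for the myeloid growth factor GM-CSF, rose to 1.87 FPKM in MLL4SET-MKO, against 0.946 FPKM in WT (the authors' deposited table gives q = 0.013), a call that did not pass on the stricter reading. These 2 calls, 1 higher and 1 lower, make 33.3% of the 6, against 12.0% of all measured rows, with a median change of -0.09.

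Of 18 genes of the IGF axis, Igf1 left out, 12 were measured and 4 were called, 3 lower and 1 higher, which is 33.3% against 12.0% of all measured rows. Their median change was -0.15. Irs2, the adaptor that passes insulin and IGF signals inward, fell to 9.74 FPKM in MLL4SET-MKO, against 20.3 FPKM in WT (log2 ratio -1.06, interval -1.38 to -0.74), at a locus shared with 9530052E02Rik. Igfals, which encodes the acid-labile subunit that carries IGF in blood and is a growth hormone target in liver, fell to 0.974 FPKM in MLL4SET-MKO, against 2.70 FPKM in WT (log2 ratio -1.47, interval -1.96 to -0.98). Igf2, the fetal growth factor gene, rose to 17.0 FPKM in MLL4SET-MKO, against 8.83 FPKM in WT, at a locus shared with Igf2os and Mir483. All of Irs2, Igfals and Igf2 had q = 0.000903 in the authors' deposited table and passed on the stricter reading.

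Igfbp3, the main IGF carrier of blood, fell to 11.7 FPKM in MLL4SET-MKO, against 15.6 FPKM in WT (q = 0.027 in the authors' deposited table), and did not pass on the stricter reading. The receptor genes of the axis had no call. Igf1r had 2.57 FPKM in MLL4SET-MKO and 1.98 FPKM in WT (q = 0.060), and Insr had 13.7 FPKM in MLL4SET-MKO and 17.6 FPKM in WT (q = 0.052), both in the authors' deposited table.

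Of 18 genes known as STAT5 targets in other tissues, 12 were measured and 2 were called, both lower, which is 16.7% against 12.0% of all measured rows. Their median change was -0.05. Besides Igfals, which is also in the list of the IGF axis, the survival kinase gene Pim1 fell to 9.24 FPKM in MLL4SET-MKO, against 16.8 FPKM in WT (log2 ratio -0.86, interval -1.17 to -0.55; q = 0.000903 in the authors' deposited table). Both passed also on the stricter reading. Bcl6, which STAT5 represses in liver, had 25.9 FPKM in MLL4SET-MKO and 27.5 FPKM in WT (the authors' deposited table gives q = 0.87). The milk genes Csn2 and Wap, the urinary protein gene Mup3 and the liver factor gene Onecut1 were listed at 0 in both groups.

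Of 15 genes known as STAT3 or acute-phase targets, 14 were measured and 3 were called, all lower, which is 21.4%, against 12.0% of all measured rows (7.93% lower). Their median change was -0.09. They were Pim1, the vessel growth factor gene Vegfa, at 54.2 FPKM in MLL4SET-MKO and 78.7 FPKM in WT (q = 0.0017 in the authors' deposited table), and the transcription factor gene Cebpb, at 69.1 FPKM in MLL4SET-MKO and 91.5 FPKM in WT (q = 0.020). Of these, Pim1 passed on the stricter reading.

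**Figure D4:**
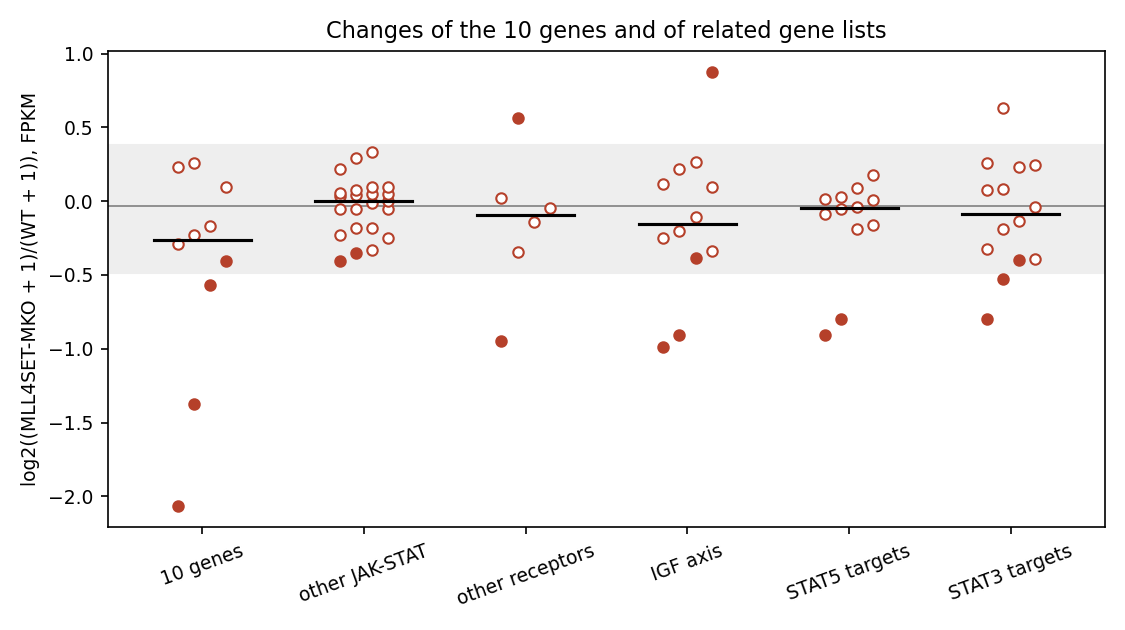
Change on the scale log2((MLL4SET-MKO FPKM + 1)/(WT FPKM + 1)) of every measured row of the 10 genes and of 5 related lists; filled circles have a q under 0.05 in the authors' deposited table, black bars are medians, the grey line is the median of all measured rows and the grey band holds the middle 90% of them. The median of the 10 genes, which were selected on these values, is -0.26, and that of the other JAK-STAT genes is 0.00.

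Counted in either direction together, rows around the 4 lower genes were called about as often as the background. Within 250 kb of Cish, Socs1, Stat5b and Jak2 lay 39 other tested rows, of which 5 had a q under 0.05, all lower. That is 12.8%, against 11.8% of all tested rows (4.44% higher and 7.41% lower). The stress kinase gene Mapkapk3, 6812 bases from Cish, fell to 12.2 FPKM in MLL4SET-MKO, against 20.03 FPKM in WT (q = 0.000903 in the authors' deposited table). A nearer unnamed row, 3407 bases from Cish, had 0.486 FPKM in MLL4SET-MKO and 0.463 FPKM in WT (q = 0.97 in the authors' deposited table). Another unnamed row, 16152 bases from Cish, fell to 0.0893 FPKM in MLL4SET-MKO, against 0.613 FPKM in WT. Of the 5 called rows, it was the only one to pass on the stricter reading. The remaining calls were Rmi2 and an unnamed row near Socs1, and Rcl1 near Jak2. Around the genes that were not called, 3 of 5 tested rows near Socs2 were called, all lower (Ube2n, Mrpl42 and Nudt4). So were 1 of 9 near Socs3 (Syngr2) and 1 of 17 near Stat3 (Plekhh3), both lower, and none near Ghr, Igf1 or Stat5a. Of these calls only Nudt4, at 89.5 FPKM in MLL4SET-MKO and 176 FPKM in WT, passed on the stricter reading.

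The targeted gene Kmt2d fell to 5.65 FPKM in MLL4SET-MKO, against 8.77 FPKM in WT (q = 0.000903 in the authors' deposited table), a call that did not pass on the stricter reading. This whole-gene value says nothing of which exons were lost. In bulk muscle, fewer cells of a type and less RNA per cell cannot be told apart. Cish and Socs1 are also active in lymphocytes, whose 12 markers all stood at or below 0.491 FPKM in MLL4SET-MKO and 0.209 FPKM in WT. The 12 summed to 1.03 FPKM in MLL4SET-MKO and 0.571 FPKM in WT, and their part in the values of Cish and Socs1 was not tested. The 6 neutrophil markers with a row stood at or below 0.148 FPKM in MLL4SET-MKO and 0.142 FPKM in WT.

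Of 10 macrophage markers, 5 were called, all higher, as was Csf2ra, which is 50% against 12.0% of all measured rows (4.03% higher). All 10 were higher by value, summing to 159 FPKM in MLL4SET-MKO and 101 FPKM in WT. The lysozyme gene Lyz2 was the most abundant of them, at 77.3 FPKM in MLL4SET-MKO and 43.2 FPKM in WT. It was the only 1 of the 10 to pass on the stricter reading. Of 6 adipocyte, 7 fibroblast and 7 endothelial markers measured, none had a q under 0.05, and their medians were 0.09, 0.08 and -0.04. Of 14 muscle fibre markers, 3 were called, all lower, which is 21.4% against 12.0% of all measured rows (7.93% lower). The slow fibre genes Tnnt1 (19.2 FPKM in MLL4SET-MKO and 107 FPKM in WT) and Myh7 (18.3 FPKM in MLL4SET-MKO and 86.7 FPKM in WT, at a locus shared with Mhrt and Mir208b) were lower by ratios close to that of Cish. The third was the fast light chain gene Mylpf, at 6959 FPKM in MLL4SET-MKO and 10773 FPKM in WT. On the stricter reading Tnnt1 and Myh7 passed and Mylpf did not. The 14 summed to 52309 FPKM in MLL4SET-MKO and 55255 FPKM in WT. The part of the fibre type and macrophage differences in the values of the 10 genes was not tested.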

How the data were processed

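Messenger RNA of gastrocnemius was sequenced from 3 MLL4SET-MKO and 3 WT libraries. Per the submitters' processing notes, the tools were TopHat2 2.0.14 and Cufflinks 2.2.1 beside bcl2fastq and FastQC 0.11.3, on the build mm10 (GRCm38). The sources used here do not name the annotation, the scaling between libraries or the use of strand. The authors deposited 1 table in the Cuffdiff layout, per the file headers, with an FPKM for each group, a test statistic (used as a score) and its p-value and q-value. One line was emptied for this work, and 11 rows with failed estimates and 12569 untested rows entered no comparison. Single libraries could not be compared, so no replicate spread was computed.

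A row was called at a q under 0.05 in the authors' deposited table. Benjamini-Hochberg adjustment of the deposited p-values over the 13347 tested rows gave these q-values within 7.17e-05. The smallest p was 5e-05 (q = 0.000903), shared by 739 rows. The z score of a deposited p-value was 1.74 times the statistic (median of 11259 rows), near the square root of 3 libraries (1.73), and standard errors of the log2 ratios were worked back on that scale. The stricter reading takes the statistic itself as the z score, with Benjamini-Hochberg adjustment, over rows where it is finite (20 are not), and calls 415 rows (3.11%).

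The members and lists were chosen with earlier results of these data known. The rule named all 10 genes and Kmt2d, up to 4 called genes of each list with the largest change (filled up to 2 with the most abundant), and called neighbours. Ghdc, Jak1, Jak3, Tyk2, Socs4 to Socs7, Ptpn11, Sh2b1, Ifngr1, Igf1r, Insr, Bcl6 and the genes listed at 0 were added after their values were seen. Cell type markers are given mostly as sums and counts. Coordinates are the table's, with starts counted from 1. Promoter sequences are from RefSeq (GRCm38.p6). The calculation was tested on simulated data drawn with the worked-back standard errors and the same scale. That run checks the code and cannot check the scale or the intervals. Python 3.11.15, pandas 2.3.3, numpy 2.4.6, scipy 1.17.1 and matplotlib 3.10.9 were used. Alternatives were the stricter reading, a minimum mean of 1 FPKM, a q under 0.01, a minimum log2 change of 0.5, pseudocounts of 0.1 FPKM and none, and other scalings between groups.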

Additional observations from a re-analysis of the deposited data

How the results depend on the processing

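On the stricter reading (the statistic itself as a z score), 165 rows were called higher and 250 lower, in place of 592 and 989. Of the 10 genes 2 were called on that reading (Cish and Socs1), against 4. On the same reading the calls came to 0 of the other JAK-STAT genes, 1 of the other receptors, 1 of the STAT3 targets and 1 of the rows near the 4 called genes. At a q under 0.01, 374 rows were called higher, 0 of the other JAK-STAT genes, 1 of the other receptors and 3 of the rows near the 4 called genes. At a q under 0.05 together with a log2 change of at least 0.5, the counts were 331 higher and 515 lower. They included 3 of the 10 genes in place of 4 (Jak2, at -0.40, was lost), 0 of the other JAK-STAT genes and 2 of the rows near the 4 called genes. A minimum mean of 1 FPKM left 3 of the rows near the 4 called genes called, since the 2 unnamed rows lie under it. The log2 changes of the 10 genes were recomputed with other pseudocounts and scalings, 40 values in all. Of these, 38 moved by less than their standard error and no gene changed sign. The exceptions were those of Socs1, at -2.01 with a pseudocount of 0.1 FPKM and -2.13 with none, in place of -1.37. All 24 recomputed list medians kept their sign. No paired analysis was possible because the table carries no column of single libraries, and for the same reason leaving out each replicate was not run. Depth is unknown; the median standard error of the log2 ratio was 0.20 for measured rows under 5 FPKM and 0.14 from 5 FPKM upward.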
